A study of Mus musculus with 8 samples.

Results

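The genes described here are 9 glucose transporters and enzymes of glucose and fructose metabolism, namely Slc5a1, Slc5a2, Slc2a1, Slc2a2, Fbp1, Pck1, Pcx, G6pc and Khk. They were picked by gene symbol, and all 19 probe sets that the array's annotation gave to a single one of them were used, out of 45101 probe sets and 18194 singly named genes in all. Signals were compared across 4 pools of whole embryonic mouse kidneys, each measured on 2 Affymetrix Mouse Genome 430 2.0 arrays. The E18.5 conditional mutant pool held kidneys of 9 embryos and the E18.5 control pool those of 14, and the E14.5 conditional mutant pool held kidneys of 17 embryos and the E14.5 control pool those of 23. Mutant embryos were Lim1 flox/lacZ; Rarb2-Cre tg/+ and control embryos were Lim1 flox/+; Rarb2-Cre tg/+, so both genotypes carried the Cre transgene and a floxed allele, and the controls also kept a wild-type allele. The lacZ allele is a null allele of Lim1 (also called Lhx1), a homeobox gene needed to form nephrons, and the transgene drives Cre in the metanephric mesenchyme, which leaves the ureteric bud and its collecting duct outside the deletion. The background was a 129, C57BL/6 and SJL/J mix, and embryos of both sexes were combined.

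The proximal tubule of the nephron takes filtered glucose back from the urine and is, next to the liver, the main tissue that makes glucose. Sodium-coupled carriers of the Slc5 family bring glucose in from the lumen, and facilitative carriers of the Slc2 family let it leave toward the blood. In gluconeogenesis, pyruvate carboxylase (Pcx) and phosphoenolpyruvate carboxykinase (Pck1) bypass the last step of glycolysis, fructose bisphosphatase (Fbp1) reverses the phosphofructokinase step, and glucose phosphatase (G6pc) releases free glucose. Ketohexokinase (Khk) starts the use of fructose, which the same tubule cells also carry out.

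The 2 arrays of a pool hold separate target preparations of the same RNA, so they are technical duplicates, each condition is represented by 1 pool, and no test between 2 conditions was possible. The error given for a ratio is therefore the range over the 4 pairings of single arrays. Values are linear signal intensities, with array medians between 225 and 243. The median fold between duplicates was 1.16 in the E18.5 mutant pool, against 1.08 in the E18.5 control pool, and 1.09 in the E14.5 mutant pool, against 1.11 in the E14.5 control pool. A probe set was counted as different when the ratio of the pool means was at least 2 and exceeded the gap between duplicate arrays in both pools, the higher mean times the ratio exceeded 100, and both arrays of the higher pool reached their own 40th percentile, which lay between 177 and 193. Of the 2 Lhx1 probe sets, 1421951_at gave 459 and 379 in the E18.5 mutant pool and 342 and 382 in the E18.5 control pool, and 1450428_at gave 296 and 333 in the mutant pool and 370 and 352 in the control pool. At E14.5 they gave 323 and 290 in the mutant pool against 388 and 365 in the control pool, and 563 and 554 in the mutant pool against 449 and 517 in the control pool, so the signals of the targeted gene did not separate the genotypes by the size criteria. Where these probe sets lie relative to the deleted part of the gene was not examined.

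At E18.5, 5 of the 9 genes, read by their brightest probe set, were lower in mutant than in control kidneys past the size criteria, namely Fbp1, Pck1, Slc2a2, Slc5a1 and Slc2a1, and 0 were higher. Over all singly named genes the same criteria called 1.75% lower and 0.0989% higher. The ratio of mutant to control was below 1 for all 9 genes, with a median log2 ratio of -1.15, against 0.03 over all genes. By probe set, 10 of 19 were lower, where 1.27% of all probe sets were, and 0 were higher, where 0.0931% were. Counting a gene by any of its probe sets added Pcx, for 6 of 9, where 2.23% of all genes were lower and 0.165% higher in that reading. In whole kidneys, fewer cells of a type and less RNA per cell cannot be told apart. The plot of signals by array shows each probe set in the 4 pools.

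**Figure D1:**
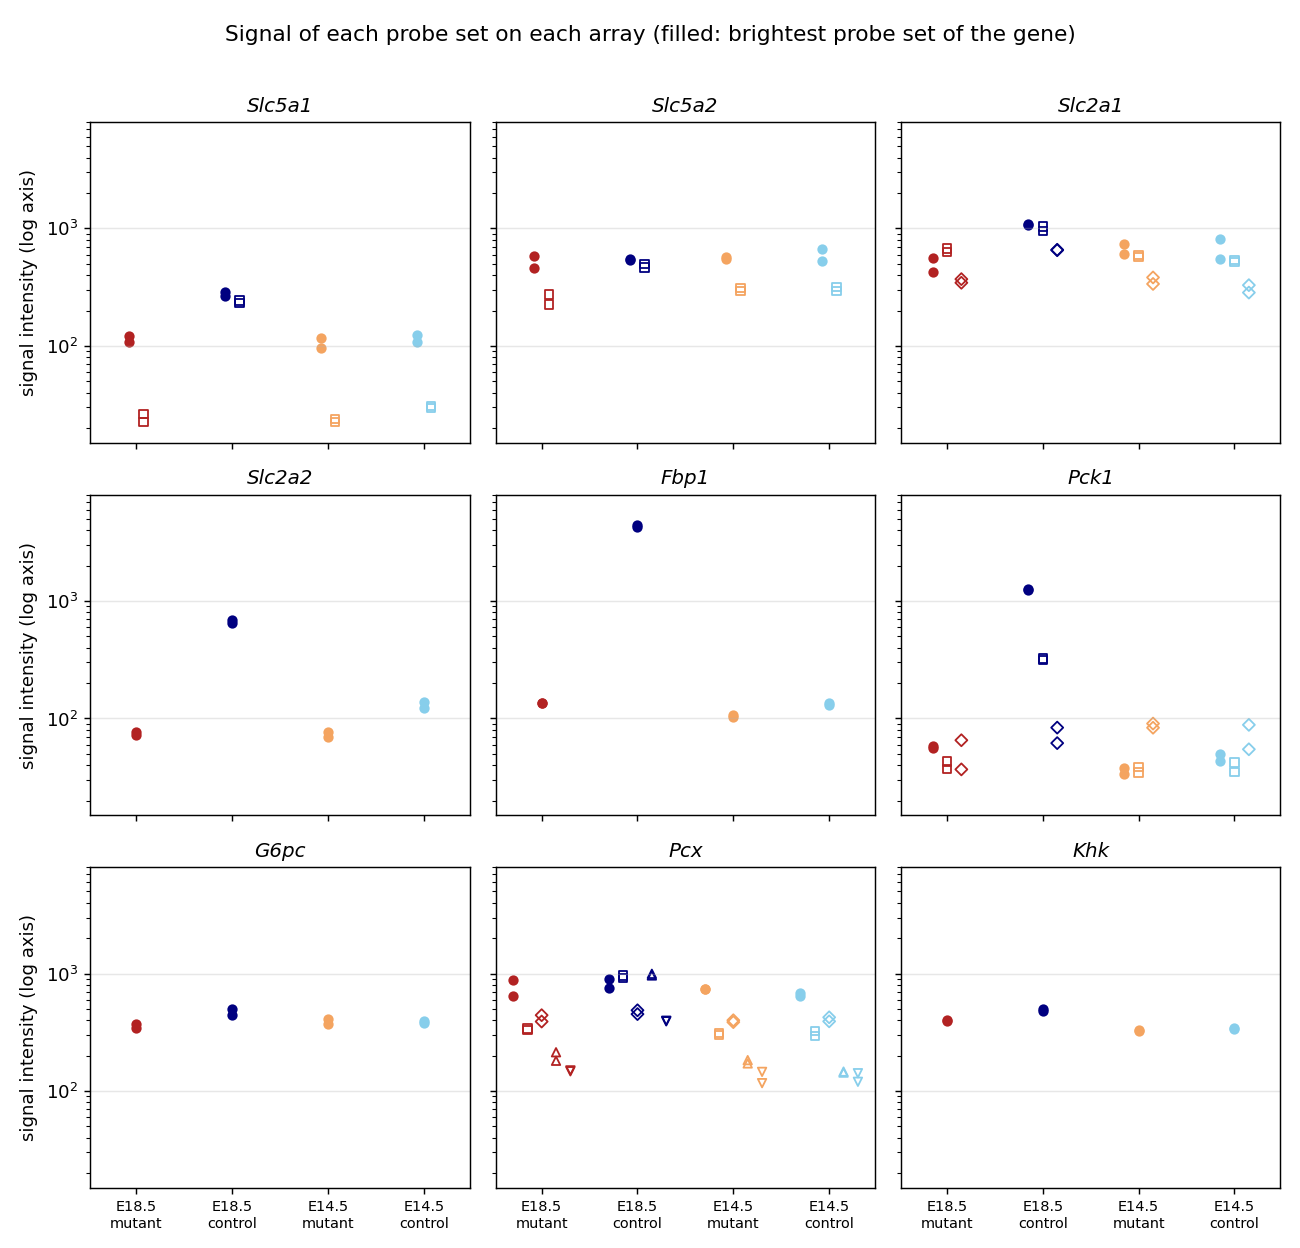
Signal intensity (log axis) of the 19 probe sets of the 9 genes on the 8 arrays, by pool. Each point is 1 array, each marker shape within a panel is a probe set, and filled circles are the brightest probe set of the gene; for Fbp1, Pck1 and Slc2a2 the E18.5 control arrays stand alone at the top, whereas G6pc, Khk and the brightest Slc5a2 and Pcx probe sets lie close together in all pools.

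Among the gluconeogenic enzymes, Fbp1 gave the largest ratio. Its single probe set, 1448470_at, read 137 and 135 on the E18.5 mutant arrays, against 4292 and 4408 on the E18.5 control arrays. At E14.5 it read 107 and 103 on the mutant arrays, against 136 and 131 on the control arrays. The E18.5 control arrays were thus high and the other 6 all low, each below the 40th percentile of its array. Fbp1 was 32.0-fold lower in E18.5 mutant than in E18.5 control kidneys (31.4 to 32.7 over the array pairings, 1 pool each). At E14.5 it was 1.27-fold lower in mutant kidneys (1.22 to 1.32), which did not pass the criteria although the 2 pairs of arrays did not overlap.

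Pck1, the cytosolic carboxykinase that turns oxaloacetate into phosphoenolpyruvate, followed the same order of pools. Its brightest probe set, 1423439_at, read 56.6 and 57.8 on the E18.5 mutant arrays, against 1252 and 1273 on the E18.5 control arrays. At E14.5 it read 37.6 and 33.9 on the mutant arrays, against 49.7 and 43.3 on the control arrays. Pck1 was 22.1-fold lower in E18.5 mutant kidneys (21.7 to 22.5) and 1.30-fold lower in E14.5 mutant kidneys (1.15 to 1.46), the second ratio not past the criteria. A second probe set, 1439617_s_at, read 43.0 and 37.0 on the E18.5 mutant arrays against 315 and 323 on the E18.5 control arrays, a 7.98-fold lower signal (7.32 to 8.75), and between 34.8 and 42.0 on the E14.5 arrays of both genotypes. The third, 1455209_at, lay below the 40th percentile on all 8 arrays, between 36.8 and 90.5, with overlapping genotypes at both stages. For Pck1 as for Fbp1, the signals of the 3 lower pools were below the 40th percentile, and the size of the ratio depended on the background: with 50 units added to every signal, the E18.5 log2 ratio of mutant to control was -3.61 for Pck1 and -4.57 for Fbp1, against -4.46 and -5.0 as deposited.

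Because Fbp1, Pck1 and Slc2a2 differed most between the E18.5 genotypes by their brightest probe sets and G6pc, an enzyme of the same pathway, little, the 250 bases before the annotated start of these 4 genes are given here, from RefSeq on the GRCm38.p6 build, 5′ to 3′ on the gene's strand. Capitals mark exact matches, on either strand, to the HNF4 motif CAAAGTCCA, the cAMP response element core TGACGT, the SP1 GC box GGGCGG or the TATA box TATAAA. The Fbp1 window is chr13:62888283-62888532 on the minus strand, the Pck1 window chr2:173152823-173153072, the Slc2a2 window chr3:28697653-28697902 and the G6pc window chr11:101367466-101367715, the last 3 on the plus strand.
Fbp1: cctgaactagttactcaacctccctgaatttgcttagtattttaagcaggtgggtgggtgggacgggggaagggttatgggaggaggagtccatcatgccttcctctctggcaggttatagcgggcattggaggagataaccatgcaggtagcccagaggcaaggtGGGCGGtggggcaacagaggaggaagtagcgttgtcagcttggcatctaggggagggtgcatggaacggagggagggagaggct
Pck1: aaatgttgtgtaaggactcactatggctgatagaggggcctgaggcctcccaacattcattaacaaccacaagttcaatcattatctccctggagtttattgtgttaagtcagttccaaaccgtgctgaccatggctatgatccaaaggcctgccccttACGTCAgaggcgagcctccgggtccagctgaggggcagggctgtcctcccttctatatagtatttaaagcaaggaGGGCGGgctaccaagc
Slc2a2: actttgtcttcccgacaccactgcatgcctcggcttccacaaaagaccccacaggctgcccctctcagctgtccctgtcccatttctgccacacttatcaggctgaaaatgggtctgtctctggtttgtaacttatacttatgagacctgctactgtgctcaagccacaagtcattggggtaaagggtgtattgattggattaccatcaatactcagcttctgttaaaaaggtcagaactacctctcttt
G6pc: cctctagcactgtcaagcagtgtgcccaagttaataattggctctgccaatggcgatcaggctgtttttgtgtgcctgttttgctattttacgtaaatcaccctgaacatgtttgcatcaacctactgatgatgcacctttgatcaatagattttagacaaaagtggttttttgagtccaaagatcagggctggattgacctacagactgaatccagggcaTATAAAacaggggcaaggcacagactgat

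Counted from the start site, the Pck1 window held a reverse cAMP response element core from -91 to -86 and a GC box from -16 to -11. The G6pc window held a TATA box from -29 to -24, the Fbp1 window a GC box from -84 to -79, and the Slc2a2 window none of the 4 motifs. None of the 4 motifs was shared by Fbp1, Pck1 and Slc2a2. The HNF1 motif GTTAAT was left out of this search, so its matches are not in capitals. By its letters it occurred in the G6pc window and, as the reverse ATTAAC, in the Pck1 window. The Fbp1 and Slc2a2 windows held neither form. How often it occurs among all promoters was not examined. Of the 8 genes with a promoter entry, 0 held the HNF4 motif, 1 the cAMP response element core, 5 the GC box and 1 the TATA box. Of 32851 promoters of the same length, 0.384%, 6.47%, 32.7% and 12.4% held them in that order. Matches are given as a description of the sequence.

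Pcx, the mitochondrial carboxylase that makes oxaloacetate from pyruvate, was covered by 5 probe sets that did not read alike. Probe set 1416383_a_at read 181 and 214 on the E18.5 mutant arrays against 963 and 995 on the E18.5 control arrays, and 172 and 183 on the E14.5 mutant arrays against 146 and 143 on the E14.5 control arrays. It was 4.96-fold lower in E18.5 mutant kidneys (4.51 to 5.5) and 1.23-fold higher in E14.5 mutant kidneys (1.17 to 1.28), the E14.5 ratio not past the criteria. The other 4 are control probe sets that the manufacturer placed along the transcript under the names 5′, MA, MB and 3′.

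The control 3′ probe set read 342 and 331 on the E18.5 mutant arrays against 915 and 964 on the E18.5 control arrays, a 2.79-fold lower signal (2.68 to 2.92). The MB probe set read 147 and 150 on the E18.5 mutant arrays against 397 and 392 on the E18.5 control arrays, 2.65-fold lower in the mutant pool (2.62 to 2.69). Both passed the criteria. The MA probe set, the brightest of the gene, read 883 and 639 on the E18.5 mutant arrays against 895 and 756 on the E18.5 control arrays, with a log2 ratio of -0.12 (-0.49 to 0.22), and the 5′ probe set read 442 and 390 on the mutant and 487 and 452 on the control arrays of that stage, with a log2 ratio of -0.17 (-0.32 to -0.03). The ratio of 3′ to 5′ signal was 0.773 and 0.847 on the E18.5 mutant arrays, against 1.88 and 2.13 on the E18.5 control arrays, and between 0.692 and 0.831 on the 4 E14.5 arrays. The same ratio of actin was 1.23 and 1.31 on the E18.5 mutant arrays against 1.5 and 1.45 on the E18.5 control arrays, that of the transferrin receptor was 4.58 and 4.54 on these mutant arrays against 4.43 and 4.86 on these control arrays, and that of Gapdh lay between 1.01 and 1.33 on all arrays. Why the probe sets of Pcx disagree was not tested.

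**Figure D2:**
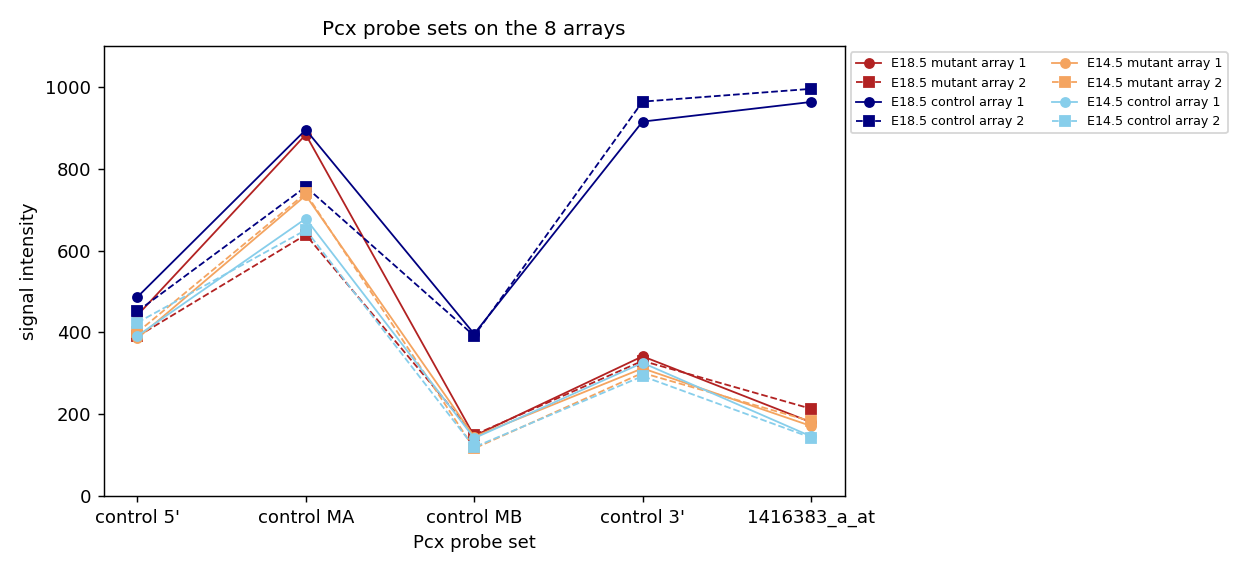
Signal intensity of the 5 Pcx probe sets on the 8 arrays, lines joining the values of 1 array, with the axis starting at 0. The E18.5 control arrays separate from the other 6 at MB, 3′ and 1416383_a_at, and at 5′ and MA the arrays of the 4 pools lie between 386 and 895 with the E18.5 genotypes close to each other.

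G6pc, the catalytic subunit of the phosphatase that ends gluconeogenesis, read 347 and 373 on the E18.5 mutant arrays against 447 and 500 on the E18.5 control arrays. It read 375 and 414 on the E14.5 mutant arrays against 382 and 397 on the E14.5 control arrays. All 8 arrays were above the 40th percentile. The signal was 1.32-fold lower in E18.5 mutant kidneys (1.20 to 1.44), short of the criteria, with no overlap of the arrays at E18.5 and full overlap at E14.5, where the log2 ratio was 0.02 (-0.08 to 0.12).

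Khk, which phosphorylates fructose, had 1 probe set that read 406 and 394 on the E18.5 mutant arrays against 483 and 497 on the E18.5 control arrays, 1.22-fold lower in the mutant pool (1.19 to 1.26). It read 325 and 332 on the E14.5 mutant arrays against 338 and 345 on the E14.5 control arrays. Its pools ordered as E18.5 control, E18.5 mutant and then the 2 E14.5 pools, with no overlap of arrays between any 2 pools, but none of its ratios passed the criteria.

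Among the transporters, Slc2a2, the facilitative carrier on the blood side of early proximal tubule cells and of hepatocytes, differed most by brightest probe sets, although a dimmer probe set of Slc5a1 gave a larger ratio (9.72-fold). Its single probe set, 1449067_at, read 77.2 and 72.1 on the E18.5 mutant arrays, against 655 and 688 on the E18.5 control arrays. At E14.5 it read 69.9 and 76.4 on the mutant arrays, against 123 and 137 on the control arrays. The E14.5 control pool stood above both mutant pools, which overlapped each other, and all 3 lay below the 40th percentile. Slc2a2 was 8.99-fold lower in E18.5 mutant kidneys (8.48 to 9.54), a log2 ratio of -3.17 that was -2.53 with 50 units added to every signal. At E14.5 it was 1.77-fold lower in mutant kidneys (1.60 to 1.96), the lowest ratio of mutant to control among the 9 genes at that stage, and did not pass the criteria.

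Slc2a1, a facilitative carrier found in most cell types, had 3 probe sets. The brightest, 1434773_a_at, read 424 and 556 on the E18.5 mutant arrays against 1071 and 1100 on the E18.5 control arrays, 2.22-fold lower in the mutant pool (1.93 to 2.59). Its E14.5 arrays overlapped, with 737 and 606 in the mutant pool and 551 and 820 in the control pool. Without the first E18.5 mutant array, the E18.5 log2 ratio was -0.97 and no longer passed. Probe set 1426599_a_at read 345 and 370 on the E18.5 mutant arrays against 658 and 653 on the E18.5 control arrays, and 383 and 337 on the E14.5 mutant arrays against 284 and 329 on the E14.5 control arrays. The E18.5 signal was 1.83-fold lower in the mutant pool by that probe set (1.76 to 1.91) and 1.53-fold lower by 1426600_at (1.41 to 1.65), both short of the criteria. All 3 probe sets separated the E18.5 genotypes in the same direction.

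Slc5a1, the high-affinity sodium-coupled carrier of the late proximal tubule and the small intestine, was read by 2 probe sets. The brightest, 1419057_at, read 123 and 107 on the E18.5 mutant arrays against 268 and 286 on the E18.5 control arrays, and 96.2 and 118 on the E14.5 mutant arrays against 109 and 123 on the E14.5 control arrays. Only the E18.5 control arrays reached the 40th percentile, and the other 3 pools overlapped. The signal was 2.41-fold lower in E18.5 mutant kidneys (2.18 to 2.66), and with 50 units added the log2 ratio was -0.98, which no longer passed. The second, 1455431_at, read 26.2 and 22.6 on the E18.5 mutant arrays against 231 and 243 on the E18.5 control arrays, 9.72-fold lower in the mutant pool (8.82 to 10.8). Its E14.5 arrays read 23.7 and 22.4 in the mutant pool and 29.6 and 30.8 in the control pool, so the probe sets shared a direction at E18.5 but differed in size.

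Slc5a2, the high-capacity carrier of the early proximal tubule, did not pass the criteria by either probe set. The brightest, 1419166_at, read 583 and 457 on the E18.5 mutant arrays against 542 and 549 on the E18.5 control arrays, and 550 and 571 on the E14.5 mutant arrays against 669 and 526 on the E14.5 control arrays. The genotypes overlapped at both stages by this probe set. Probe set 1455005_s_at read 273 and 226 on the E18.5 mutant arrays against 498 and 466 on the E18.5 control arrays, 1.93-fold lower in the mutant pool (1.71 to 2.21), and 292 and 311 on the E14.5 mutant arrays against 316 and 292 on the E14.5 control arrays. The 2 probe sets thus differed in whether E18.5 control kidneys stood apart.

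**Figure D3:**
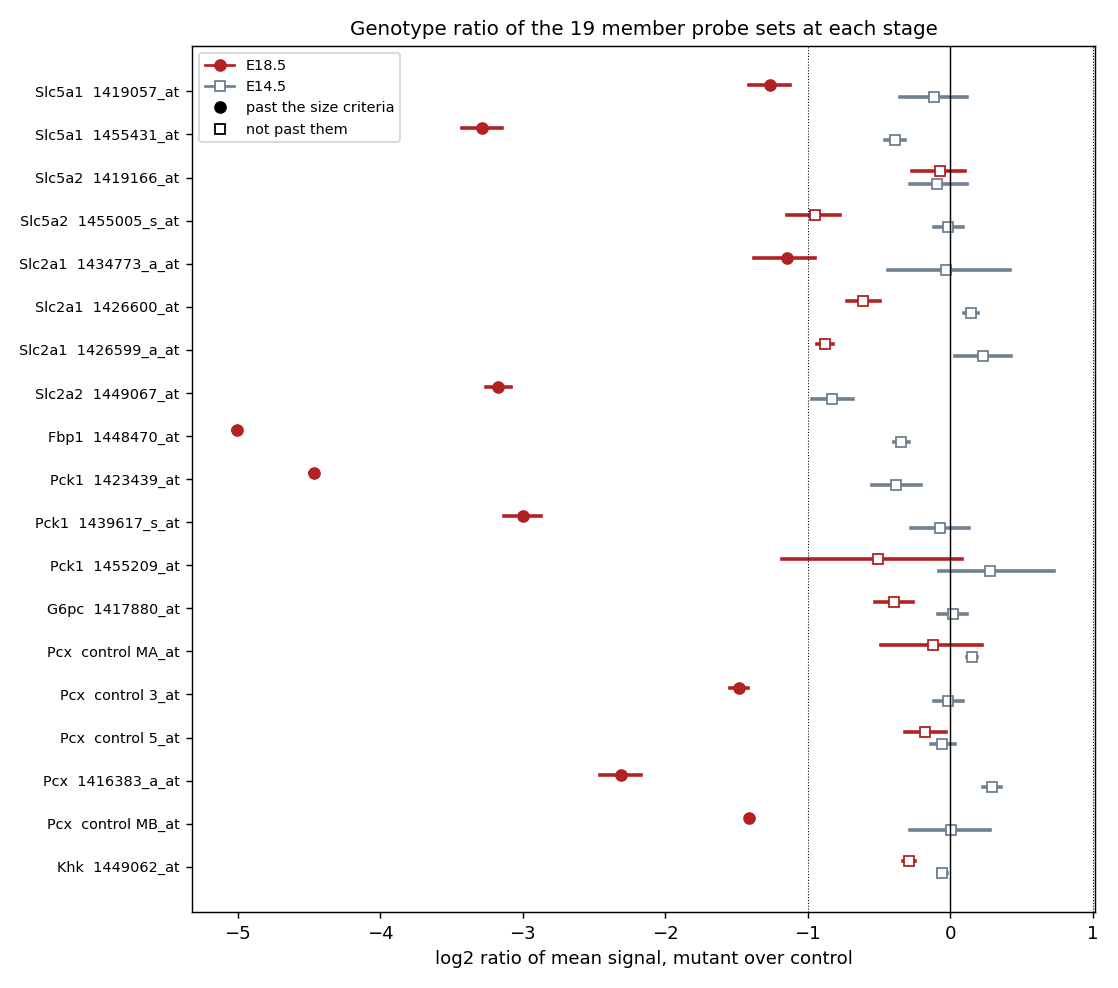
Log2 ratio of mean signal, mutant over control, of the 19 probe sets at E18.5 (red) and E14.5 (grey). Bars span the 4 array pairings, filled circles passed the size criteria, open squares did not, and dotted lines mark a 2-fold ratio; 10 E18.5 ratios and 0 E14.5 ratios passed.

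At E14.5, 0 of the 9 genes and 0 of the 19 probe sets passed the criteria in either direction between mutant and control kidneys. Over all singly named genes 0.0715% were called lower and 0% higher at this stage, and over all probe sets 0.0732% lower and 0.00222% higher. The median log2 ratio of the 9 genes was -0.09, against 0.01 over all genes, with 7 genes below 0 and 2 above.

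Between stages, 4 of the 9 genes were higher in E18.5 than in E14.5 control kidneys past the criteria, namely Fbp1, Pck1, Slc2a2 and Slc5a1, and 0 were lower, where 3.57% of all genes were higher and 1.21% lower. Fbp1 was 32.7-fold higher at E18.5 (31.6 to 33.8), Pck1 27.1-fold (25.2 to 29.4), Slc2a2 5.17-fold (4.77 to 5.61) and Slc5a1 2.39-fold (2.18 to 2.63). With 50 units added to every signal the log2 ratio of Pck1 was 3.77, against 4.76 as deposited, and that of Slc5a1 was 0.98, against 1.26, and no longer passed. By probe set 10 of 19 were higher, where 2.55% of all probe sets were. Counting any probe set, by which 4.75% of all genes were higher and 2.94% lower, added Pcx, which was 6.76-fold higher by 1416383_a_at (6.58 to 6.94), 3.03-fold by control 3′ (2.81 to 3.29) and 3.01-fold by control MB (2.76 to 3.31), and Slc2a1, which was 2.14-fold higher by 1426599_a_at (1.98 to 2.31). By its brightest probe set Slc2a1 was 1.58-fold higher (1.31 to 2.00) and Khk 1.43-fold (1.40 to 1.47), both short of the criteria. The median log2 ratio of the 9 genes was 0.66, against -0.01 over all genes.

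In mutant kidneys 0 of the 9 genes passed between the same stages, where 0.896% of all genes were higher at E18.5 and 0.742% lower, and 0 of the 19 probe sets, where 0.721% of all were higher and 0.889% lower (1.35% and 1.49% of all genes by any probe set). Pck1 had a log2 ratio of E18.5 to E14.5 mutant kidneys of 0.68 (0.59 to 0.77), Fbp1 of 0.37 (0.34 to 0.41) and Khk of 0.28 (0.25 to 0.32). The duplicate arrays of the 2 stages did not overlap for these 3 genes. Slc2a2 (log2 ratio 0.03) and Slc5a1 (0.10) overlapped between stages, and the median of the 9 genes was 0.05, against 0.02 over all genes.

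The difference between the genotype ratios of the 2 stages, which equals the difference between the stage ratios of the 2 genotypes, was at or below -1 on the log2 scale for 5 of the 9 genes, where 1.93% of all genes were. It was -4.66 for Fbp1 (-4.74 to -4.58), -4.08 for Pck1 (-4.29 to -3.89), -2.34 for Slc2a2 (-2.57 to -2.11), -1.15 for Slc5a1 (-1.53 to -0.77) and -1.12 for Slc2a1 (-1.80 to -0.51). With a single pool in each condition this difference had no test. The count rested on single arrays for the last pair of genes: the difference of Slc2a1 was -0.94 without the first E18.5 mutant array, -0.97 without the first E14.5 mutant array and -0.86 without the first E14.5 control array, and that of Slc5a1 was -0.999 without the second E14.5 mutant array. With 50 units added to every signal the difference of Slc5a1 was -0.91, which left 4 genes.

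A limma fit on the 4 pool means tested what the stages share in genotype difference and what the genotypes share in stage difference, with additive terms for genotype and stage and 1 residual degree of freedom. Of 27061 probe sets tested, 0 passed a Benjamini-Hochberg adjusted p of 0.05 for genotype (1045 at an unadjusted p under 0.05) and 2332 passed for stage, 926 of them higher at E18.5 and 1406 lower. Of the 15 member probe sets tested, 0 passed for either term. For Slc2a2 the fitted genotype difference over both stages was -1.99 on the log2 scale, with an unadjusted p of 0.0146 and an adjusted p of 1 (limma). For Pck1 it was -2.40, with an unadjusted p of 0.0491 and an adjusted p of 1 (limma). Both combine unlike ratios and do not show a difference that the stages share. The log2 ratios were -3.17 at E18.5 and -0.83 at E14.5 for Slc2a2, and -4.46 at E18.5 and -0.38 at E14.5 for Pck1. For stage, Khk had an adjusted p of 0.119 and Pck1 of 0.145 (limma). A genotype difference that is present at a single stage enters the residual of this fit. Without the second E18.5 mutant array the prior degrees of freedom were 12.4, against 3.91 with all arrays, and 0 members passed for genotype. For stage, Pck1 (1423439_at), Fbp1, Slc2a2 and Pcx (1416383_a_at and control MB) then passed. Their fitted log2 differences were 2.69, 2.70, 1.22, 1.39 and 0.88. Apart from 1416383_a_at, these probe sets reached the 40th percentile on the E18.5 control arrays alone. The Slc2a2 log2 ratio of E18.5 to E14.5 was 2.37 in control and 0.03 in mutant kidneys. These passes therefore do not show a stage difference that the genotypes share.

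Other genes of glucose handling were read from 6 lists. Over all genes, 1.75% were lower and 0.0989% higher in E18.5 mutant than in E18.5 control kidneys by brightest probe sets. Of 16 measured other sugar transporters and their partners, 2 were lower in E18.5 mutant kidneys and 0 higher, with a median log2 ratio of -0.01. These were Slc5a3, the sodium-coupled inositol carrier, which averaged 660 in the mutant pool and 1448 in the control pool (2.19-fold lower, 2.09 to 2.30), and Pdzk1ip1, a membrane partner of the Slc5a2 carrier, which averaged 1142 in the mutant pool and 3480 in the control pool (3.05-fold lower, 2.74 to 3.42). By the dimmer probe sets 1440227_at and 1422170_at, Slc5a3 had E18.5 log2 ratios of mutant to control of -0.01 and 0.10. By their brightest probe sets both genes were also higher in E18.5 than in E14.5 control kidneys. Pdzk1ip1 alone of this list was higher in E18.5 than in E14.5 mutant kidneys too, with a mean of 1142 at E18.5 and of 359 at E14.5. Its dimmer probe set, 1455477_s_at, averaged 724 at E18.5 and 377 at E14.5 in mutant kidneys, short of the criteria.

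Of 15 measured gluconeogenic enzymes and partners beyond those above, 3 were lower in E18.5 mutant kidneys and 0 higher, with a median log2 ratio of -0.53. Slc37a4, which carries glucose phosphate to the G6pc active site, averaged 372 in the mutant pool and 997 in the control pool (2.68-fold lower, 2.63 to 2.73). Fbp2, the muscle-type fructose bisphosphatase, averaged 120 in the mutant pool and 269 in the control pool (2.25-fold lower, 2.14 to 2.37), and Got1, the cytosolic aspartate aminotransferase, averaged 339 in the mutant pool and 704 in the control pool (2.08-fold lower, 1.85 to 2.34). Pgk1 and Gapdh, the brightest of the list and steps shared with glycolysis, had log2 ratios of -0.48 and -0.20. In control kidneys 6 of the 15 were higher at E18.5 than at E14.5, where 3.57% of all genes were higher and 1.21% lower.

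Of 3 measured genes of fructose and polyol metabolism, Tkfc, which phosphorylates the glyceraldehyde that fructose breakdown yields, was lower in E18.5 mutant kidneys, with means of 273 in the mutant pool and 714 in the control pool (2.62-fold, 2.47 to 2.79), and Akr1a1, an aldehyde reductase, had a log2 ratio of -0.40. Of 14 genes of the opposing glycolytic steps, 2 were lower, Pfkp (2.95-fold, 2.83 to 3.08), a phosphofructokinase subunit, and Ldhb (2.58-fold, 2.32 to 2.89), a lactate dehydrogenase subunit, and the list median was -0.06. By the dimmer probe sets 1430634_a_at and 1437759_at, Pfkp was 1.20-fold and 1.10-fold lower, short of the criteria. Pkm, a pyruvate kinase, had a log2 ratio of 0.14 and Ldha, the other main lactate dehydrogenase subunit, of -0.30. Of 6 genes of glutamine supply, Glud1, the glutamate dehydrogenase, was lower (2.56-fold, 2.35 to 2.79), and Glul, the glutamine synthetase, had a log2 ratio of -0.63. Of 17 regulators, 0 passed between the E18.5 genotypes by their brightest probe sets, where 1.75% of all genes were lower and 0.0989% higher. The brightest, Hif1a and Igf1r, had log2 ratios of -0.02 and 0.09. Between the E14.5 genotypes 0 genes of the 6 lists passed in this reading, where 0.0715% of all genes were lower and 0% higher.

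Counting a gene by any of its probe sets, a reading added after the values were seen, made 2 of the 17 regulators lower in E18.5 mutant kidneys, Ppargc1a and Hnf4a. In that reading 2.23% of all genes were lower and 0.165% higher. Ppargc1a, a coactivator that raises gluconeogenic genes in liver, was 1.93-fold lower by its brightest probe set, 1456395_at (1.90 to 1.97), with 192 and 189 on the E18.5 mutant arrays against 372 and 363 on the E18.5 control arrays, and between 2.11-fold and 3.80-fold lower by the 4 that passed. Hnf4a, a nuclear receptor of liver and proximal tubule, had 2 probe sets of 4 that passed. By 1427000_at it read 51.7 and 65.5 on the E18.5 mutant arrays against 936 and 964 on the E18.5 control arrays, 16.2-fold lower in the mutant pool (14.3 to 18.6). By 1427001_s_at it read 307 and 277 on the E18.5 mutant arrays against 1450 and 1512 on the E18.5 control arrays, 5.07-fold lower (4.73 to 5.46), and this probe set alone of the lists also passed between the E14.5 genotypes, where 0.121% of all genes were lower and 0.0055% higher by any probe set, with 249 and 264 on the mutant arrays against 528 and 545 on the control arrays. At E14.5, 1427000_at read 33.0 and 34.4 on the mutant arrays against 148 and 236 on the control arrays. It was not called there because the first control array lay under its 40th percentile of 191. The study, which used present calls in place of that percentile, listed this gene, as Hnf4, among those more than 2-fold higher in E14.5 control kidneys. By 1421983_s_at, the brightest, and 1450447_at the E18.5 log2 ratios were -0.28 and -0.18, so the probe sets of Hnf4a did not read alike. The same reading added Mdh1, the cytosolic malate dehydrogenase, to the gluconeogenic list, for 4 of 15, and Glyctk, a glycerate kinase, to the fructose list, for 2 of 3, and left the other 3 counts as they were.

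**Figure D4:**
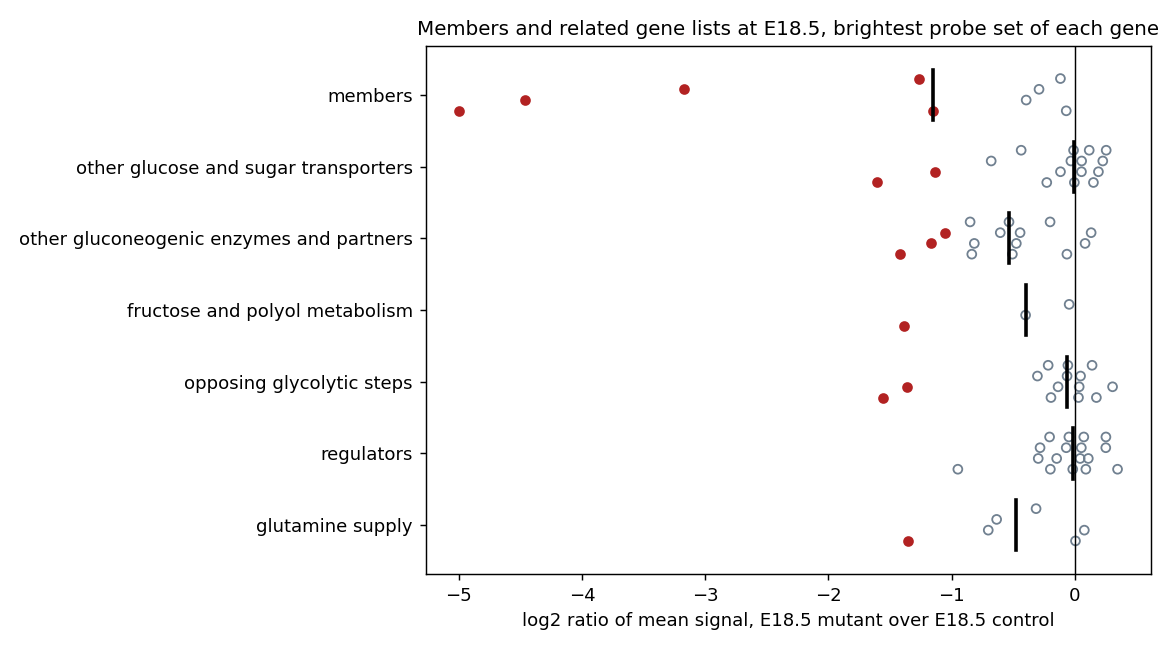
Log2 ratio of mean signal, E18.5 mutant over E18.5 control, of the 9 genes and of 6 lists of related genes, a gene being read by the brightest of its probe sets. Red points passed the size criteria, open points did not, and vertical bars are list medians, at -1.15 for the 9 genes and at -0.01 for the other sugar transporters.

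Markers of kidney cell types were read in the same pools, where 1.75% of all genes were lower and 0.0989% higher in E18.5 mutant kidneys. Of 7 proximal tubule markers, 6 were lower in E18.5 mutant kidneys, and their summed signal lay between 1527 and 1710 on the mutant arrays, against 16289 and 17121 on the control arrays. At E14.5 it lay between 1125 and 1358 on the mutant arrays, against 1520 and 1560 on the control arrays. Hnf4a did not pass by its brightest probe set, and by any probe set all 7 were lower. The 2 thick ascending limb markers summed to between 196 and 220 on the E18.5 mutant arrays, against 5361 and 5537 on the E18.5 control arrays. At E14.5 they summed to between 167 and 170 on the mutant arrays, against 330 and 381 on the control arrays. Slc12a1 passed at E14.5 too, 2.43-fold lower in mutant kidneys (2.18 to 2.70), where 0.0715% of all genes were lower, and Umod (1.35-fold lower) did not. The 3 nephron progenitor markers summed to between 3050 and 3406 on the E18.5 mutant arrays, against 1790 and 1882 on the E18.5 control arrays. None of these 3 passed: Six2 was 1.70-fold, Cited1 1.81-fold and Eya1 1.80-fold higher in E18.5 mutant kidneys. On the same arrays the collecting duct markers summed to between 2557 and 2849 in the mutant pool, against 4897 and 4966 in the control pool, with Aqp2 lower and Calb1 not past the criteria, and the podocyte markers to between 1538 and 1605 in the mutant pool, against 2461 and 2612 in the control pool, neither podocyte marker having passed: Podxl was 1.92-fold lower (1.82 to 2.02) and Nphs1 had a log2 ratio of -0.05. The stromal markers summed to between 4602 and 5018 in the mutant pool, against 3809 and 3814 in the control pool, and the proliferation markers to between 3280 and 4178 in the mutant pool, against 3216 and 3381 in the control pool.

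Several of the 9 genes are also active in liver, intestine, islet and fat, so markers of those cells were read in the same way. Of 5 measured hepatocyte markers, Alb was higher in E18.5 mutant kidneys, with means of 726 in the mutant pool and 357 in the control pool, Afp was lower, with 398 in the mutant and 1943 in the control pool, Ttr was lower, with 228 in the mutant and 1619 in the control pool, and Apoa1 and Apoa2 did not pass. The summed hepatocyte signal lay between 1887 and 2145 on the E18.5 mutant arrays, against 4441 and 4628 on the E18.5 control arrays. Of 3 measured enterocyte markers Vil1, a brush border protein also made in proximal tubule, was lower in E18.5 mutant kidneys and the list summed to between 629 and 706 on the E18.5 mutant arrays, against 1180 and 1186 on the E18.5 control arrays. The 2 measured islet markers summed to between 595 and 713 on the E18.5 mutant arrays, against 588 and 628 on the E18.5 control arrays. The 2 adipocyte markers summed to between 2737 and 2905 on the mutant arrays, against 4090 and 4165 on the control arrays. Neither adipocyte marker passed: Fabp4 averaged 2760 in the mutant and 4058 in the control pool, and Adipoq lay below the 40th percentile on every array. The 4 measured erythroid markers summed to between 985 and 1009 on the E18.5 mutant arrays, against 940 and 949 on the E18.5 control arrays, and to 8043 or more on every E14.5 array. The stage gap lay in the globins Hbb-y and Hba-x. In control kidneys Hbb-y averaged 24.3 at E18.5 and 6796 at E14.5, and Hba-x 130 at E18.5 and 897 at E14.5. Alas2 averaged 436 at E18.5 and 356 at E14.5 in control kidneys, and Klf1 354 and 307, neither past the criteria. No marker of these lists was at 0, and the part of such cells in the results was not tested.

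The genes whose signals ran most nearly parallel across the 4 pools were found by the root mean square difference of centred log2 pool means, among 14168 genes. For Fbp1 these were Kl, the klotho hormone co-receptor of the tubule (0.064), Cyp2j5, a cytochrome P450 (0.077), and Pck1 (0.20), and for Pck1 they were Napsa, an aspartic protease (0.15), Spp2 (0.18) and Fbp1 (0.20). For Slc2a2 they were Ugt2b5, a glucuronosyltransferase (0.072), Acaa1b, a peroxisomal thiolase (0.086), and Clrn3 (0.17). For Slc2a1 they were Idh3a, of the citric acid cycle (0.025), Ndufs1, a subunit of the first respiratory complex (0.041), and Asb9 (0.051), and for Slc5a1 they were Gpr137b (0.0094), Mccc1, an enzyme of leucine breakdown, and Acss2, an acetyl-CoA synthetase (0.030 each). With 4 points per gene, and a median fold between duplicates of up to 1.16, the order within each group of neighbours was not resolved.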

How the data were processed

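RNA of 4 pools of whole embryonic kidneys was labelled in 2 target preparations each and hybridized to 8 arrays. The deposited values are linear signal intensities, which the authors scaled to 250 in Microarray Suite 5.0, summarised in dChip and normalized between arrays to an invariant set per the study's methods. The array medians of these values differ from those the methods give after normalization, and the reason is not settled. The E18.5 ratios of Fbp1 (32.04-fold) and Slc34a1 (63.47-fold) equal the fold changes that the study printed. Detection calls were not used here. Probe sets were named from the platform annotation, which gave 34958 of 45101 probe sets 1 gene, 932 several and 9211 none, and 18194 genes in all. Ratios of arithmetic means of duplicates were judged by the criteria of size, which follow the study's methods with the present calls replaced by the 40th percentile of each array.

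The limma fit (limma 3.58.1, R 4.3.3) used pool means of log2(signal + 1) of probe sets with a mean signal at or above the 40th percentile, with 3.91 prior degrees of freedom, and an adjusted p under 0.05 was the threshold. Other steps used Python 3.11.15, numpy 2.4.6, pandas 2.3.3 and matplotlib 3.10.9, and the scripts were tested on simulated data.

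The 9 genes, the 6 lists, the cell markers, the tests and the alternatives were chosen with earlier results of these data known. All 19 probe sets are accounted for. From each list the text names the 2 brightest genes and, among those past the criteria between genotypes, up to 2 with the highest and 2 with the lowest E18.5 ratio, and 3 parallel genes are given for each member past the criteria. Listed genes and markers with no singly named probe set were not analysed here. Promoter windows are RefSeq sequence on GRCm38.p6, and 8 of the 9 genes had an entry. Alternatives were scaling by quantiles or by medians, means on the log scale, an offset of 50 units, another or no minimum signal, no criterion on duplicates, omission of probe sets with a 1.5-fold gap in the E18.5 mutant duplicates, other ways to read a gene, limma with a trend, robust or unfiltered, and each array left out in turn.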

Additional observations from a re-analysis of the deposited data

Results flagged for a closer look

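For 3 probe sets every array pairing moved one way between stages in control kidneys and the other way in mutant kidneys. The log2 ratio of E18.5 to E14.5 was -0.27 in mutant and 0.66 in control kidneys for Slc5a2 (1455005_s_at), -0.45 in mutant and 0.66 in control kidneys for Slc2a1 (1434773_a_at), and -0.13 in mutant and 0.28 in control kidneys for G6pc (1417880_at). For 3 others the genotype ratio turned between stages. The log2 ratio of mutant to control for Slc2a1 by 1426600_at came to -0.61 in E18.5 kidneys and 0.15 in E14.5 kidneys, for Slc2a1 by 1426599_a_at to -0.87 in E18.5 kidneys and 0.23 in E14.5 kidneys, and for Pcx by 1416383_a_at to -2.31 in E18.5 kidneys and 0.29 in E14.5 kidneys. These differences were not tested, since the arrays are technical duplicates of 1 pool in each condition.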

How the results depend on the processing

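For the 9 genes, read by their brightest probe sets, 123 of 144 ratios over the comparisons and the settings that used all arrays moved by less than their technical spread and 21 by more, 14 of these with 50 units added, and no ratio past the criteria changed sign there or with 1 array left out. Counting the regulators by any probe set, added after the values were seen, raised those lower in E18.5 mutant kidneys to 2, against 0 by brightest probe sets, and those lower in E14.5 mutant kidneys to 1, against 0. The count of genes lower in E18.5 mutant kidneys ranged from 4 (50 units added, which drops Slc5a1 at a log2 ratio of -0.98, or the first E18.5 mutant array left out, which drops Slc2a1) to 6 (any probe set), and the count higher in E18.5 than in E14.5 control kidneys from 3 (50 units added) to 6 (any probe set). The limma count for genotype was 0 in every alternative except without the second E18.5 mutant array, so the counts with 1 array left out ranged from 0 to 45. The limma count for stage, 2332, was 1361 with median scaling and ranged from 1204, without the second E18.5 control array, to 4089, without the first E18.5 mutant array, with 1445 without the first E14.5 mutant array. The cause was not tested. No paired analysis was possible because the array numbers count target preparations of 1 RNA pool, which were averaged before the fit. Each condition is 1 pool, so spread between animals is unknown, and signals under the 40th percentile of an array, which carry the denominators of Fbp1, Pck1, Slc2a2 and Slc5a1, set the size of their ratios.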

Other observations

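The bacterial bioD control probe set, made for a spiked-in RNA, gave signals of 1342 and 789 in the E18.5 mutant pool, against 2256 and 1455 in the E18.5 control pool, and of 3736 and 3188 in the E14.5 mutant pool, against 3564 and 4201 in the E14.5 control pool, and those for bioB and bioC were also lower at E18.5 in both genotypes. The P1 Cre control probe set, whose gene the transgene of all embryos also carried, gave signals of 6956 and 4109 in the E18.5 mutant pool, against 8458 and 6326 in the E18.5 control pool. In the E14.5 mutant pool it gave 10807 and 9756, against 10984 and 11912 in the E14.5 control pool, so it was lower at E18.5 in both genotypes like the bacterial controls. The actin 3′ probe set read 13052 and 5810 on the 2 E18.5 mutant arrays.

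Among the lists, 3 more genes of the gluconeogenic group were higher in E18.5 than in E14.5 control kidneys, named here after their values were seen: Tpi1, the triose phosphate isomerase (2.36-fold, 2.27 to 2.47), and the mitochondrial carriers Slc25a10 (2.19-fold, 2.04 to 2.34) and Slc25a11 (2.11-fold, 1.96 to 2.27). Their log2 ratios of E18.5 mutant to E18.5 control kidneys were -0.53, -0.84 and -0.61, all short of the criteria. By the dimmer probe set 1416955_at, Slc25a10 averaged 574 in E18.5 and 422 in E14.5 control kidneys, which did not pass. Pfkl, the liver-type phosphofructokinase subunit, was 3.51-fold higher at E18.5 in control kidneys (3.04 to 4.14), with a log2 ratio of E18.5 mutant to control of -0.19, and Cebpb, a regulator of Pck1 in liver, was 2.04-fold higher (1.79 to 2.37), with a ratio of -0.15.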
